A study of Mus musculus with 44 samples.

Results

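The step from 1 h to 2 h of a B-cell differentiation culture was described here by comparing 3 libraries made at 2 h with 3 made at 1 h, which are 6 of the 44 libraries of a time course that runs to 168 h. The cells were iLS (induced leukocyte stem) cells of C57BL/6J fetal liver, a multipotent progenitor of blood that carries a fusion of Id3 to ERT2, a receptor domain that answers to 4-hydroxytamoxifen (4-OHT). Before the time course the cultures held IL-7 at 20 ng/mL, SCF and Flt-3L at 10 ng/mL each and 4-OHT at 40 nM. At time 0 the medium was replaced by one with IL-7 at 5 ng/mL and without 4-OHT, so both groups had lost 4-OHT and were on the low IL-7 dose, for 1 h and for 2 h. In both phases the cells lay on TSt-4, a mouse stromal feeder line, and both groups carry the fusion, so neither is an untreated control. The sources used here do not say whether the 3 replicates came from separate cultures. The p-values then measure change only against the spread between replicates, which may be technical. For single genes, unless another fit is named, that spread was pooled from 14 time points and not from 1 h and 2 h alone.

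Cells that meet a new medium or a growth factor switch on a set of early response genes within minutes, without needing new protein. Many encode transcription factors, among them the Fos and Jun proteins that pair into AP-1, the zinc-finger proteins of the Egr family and the orphan nuclear receptors of the Nr4a family. The signal passes through MAP kinases to factors already bound at the promoter, such as serum response factor at the CArG box and CREB at the cAMP response element (CRE). The response is brief because some of its own products end it: Dusp phosphatases remove phosphate from MAP kinases, and Zfp36 binds AU-rich stretches of messenger RNA and recruits enzymes that shorten the poly(A) tail. A later wave of secreted factors and regulators follows. In B-lineage development, Id proteins hold the E proteins (such as Tcf3) inactive, and their release allows Ebf1, Foxo1 and Pax5 to set the B-cell programme.

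Expression was given as FPKM, fragments scaled to the transcript's length and to the library's mapped fragments. Of 23234 genes in the table, 13907 were tested, and a gene was called at a Benjamini-Hochberg adjusted p under 0.05 from limma's linear model on log2(FPKM + 1), fitted to all 42 libraries of the replicated time points. Differences are log2 of 2 h over 1 h on that scale, with SE, which understates the change of genes of low level. Library values are given in the order of replicates 1, 2 and 3. The 6 libraries had 12031 to 12205 genes at 1 FPKM or more, and small RNA genes took 14.4 to 17.1% of the summed FPKM. Depth is unknown from FPKM. A rough estimate relative to 1 h replicate 1 was the most common ratio between its values and each library's, over genes low but not 0 (under 1 FPKM) in both. It was 1.0, 1.17 and 1.4 for the 1 h libraries and 1.91, 1.14 and 2.1 for the 2 h libraries.

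Markers of the feeder were far above those of blood cells in both groups. The summed FPKM of 23 stromal markers was 8284 ± 815 (SD, n = 3) at 1 h and 8146 ± 980 at 2 h (exact permutation test, two-sided, p = 0.9), and that of 20 general blood-cell markers was 1014 ± 130 and 1023 ± 156 (p = 1). The smallest p that an exact permutation test allows here is 0.1. Among the stromal markers, Dcn and Lum were under 1 FPKM in all 6 libraries, and no blood-cell marker was. The summed 20 myeloid markers were 545 ± 32.5 and 496 ± 34.1, ranging from 512 to 577 and from 457 to 517 (exact permutation test, p = 0.3). Of them 7 were under 1 FPKM in all 6 libraries, among them Csf1r, C1qa, Elane and S100a9. The 19 T-cell and innate lymphoid markers summed to 70.3 to 134 at 1 h and 63.7 to 122 at 2 h. Under 1 FPKM throughout were 6 of them, among them Cd3e, Cd4 and Cd8a. The 16 erythroid and megakaryocyte markers summed to 108 to 126 and 102 to 122, with 7 under 1 FPKM throughout, among them Gata1 and Klf1. Mast cell and basophil markers summed to 2.94 to 5.72 and 2.37 to 11.0. The myeloid, T-cell and erythroid sums came mainly from the members not named here, so the low markers do not show that a lineage was absent. No member of these 6 marker lists was called. In such bulk samples fewer cells of a type and less RNA per cell cannot be told apart, and whether a change lay in the iLS cells or in the feeder was not measured.

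**Figure D1:**
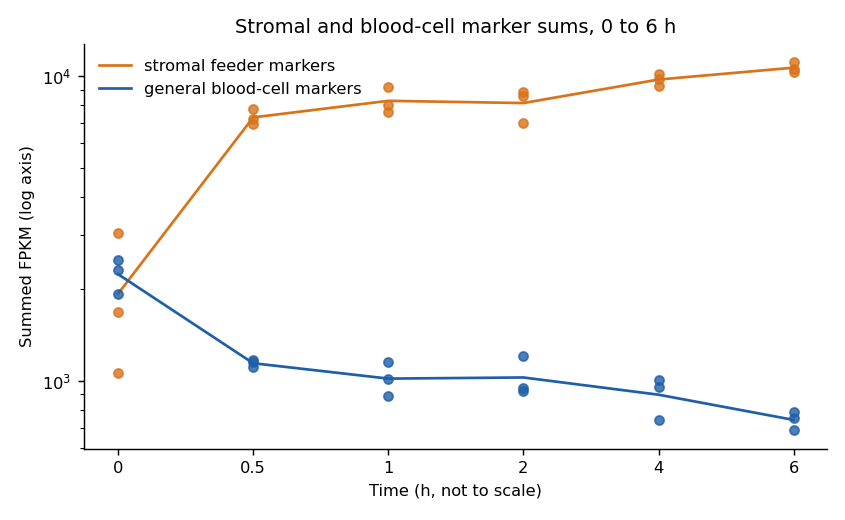
Summed FPKM (log axis) of the stromal feeder and the general blood-cell markers against time (h, not to scale) from 0 to 6 h; each point is a library and the line follows the mean of each time. Between 1 h and 2 h the libraries overlap for both lists, with stromal sums of 7025 to 9193 and blood-cell sums of 887 to 1203, while at 0 h the stromal sum was 1062 to 3039.

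From 1 h to 2 h 8 transcription factors of the early response fell, the phosphatase Dusp1 and the decay factor Zfp36 fell with them, and genes such as Cadm4, Ccl20, Tmem51, Npnt and Spsb1 rose. Of the genes tested, 121 (0.87%) were called, 80 (0.575%) higher and 41 (0.295%) lower at 2 h. For all 121 the 3 libraries of one time point lay apart from the 3 of the other, as they did for 2488 genes (17.9%) in all. Lying apart is thus no further support for a call, and where named below it is description. The difference was at least 2-fold for 49 of the genes called higher and for 20 of those called lower, and the median over all genes tested was -0.04. Small RNA genes made up 2 of the calls and are not described further. With the replicate number as a block over the 18 libraries of 0 to 6 h, 232 genes (1.67%) were called, 139 (0.999%) higher and 93 (0.669%) lower, and 101 of the 121 were among them. With the block over the 6 libraries alone only 4 genes were called, of which Fosb was the one outside the small RNA genes, and 25 were called after scaling each library to the blood-cell markers, 24 of them among the 121. Leaving out 1 library in turn left 65, 45 and 63 calls without 1 h replicates 1, 2 and 3, and 52, 63 and 74 without those of 2 h.

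**Figure D2:**
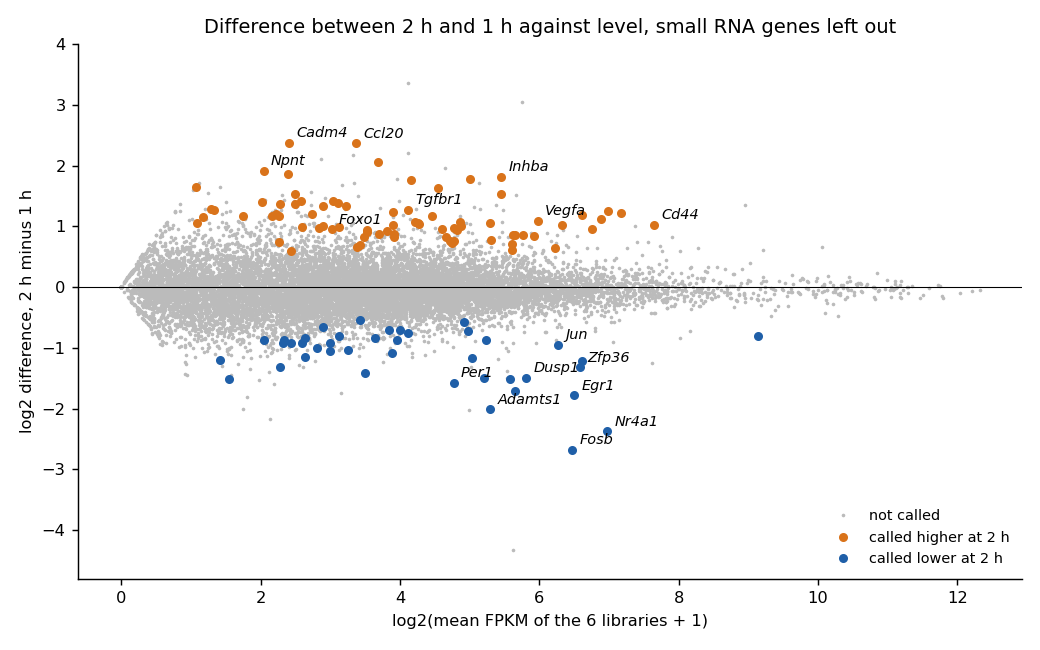
The log2 difference (2 h minus 1 h) against log2(mean FPKM of the 6 libraries + 1), 1 point per gene tested, small RNA genes left out, with genes called higher in orange and called lower in blue. Fosb (-2.68) and Nr4a1 (-2.37) lie lowest among the called genes, and Cadm4 and Ccl20 (both 2.37) highest; a few points that were not called lie farther out.

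The gene lists here and below were chosen with earlier results of these data known. Their shares and medians are given as description and are not independent support. Among the list of early response transcription factors, 8 of 26 members tested were called lower and none higher, beside 0.295% and 0.575% of all genes. The list's median difference was -0.82, against -0.04 over all genes. Of its members 21 were negative, and for 16 all 3 libraries at 2 h lay under those at 1 h, which held for 10.4% of all genes. Taken by replicate number, the median was -0.87, -0.83 and -0.89. With the block over 18 libraries 11 members were called lower, beside 0.669% of all genes. In that fit Klf4 left the calls and Jund (-0.68, limma, adjusted p = 0.0191), Klf2 (-1.06, 0.0168), Ier5 (-0.66, 0.0169) and Csrnp1 (-0.89, 0.0168) joined them. Scaled to the blood-cell markers, Fosb, Nr4a1 and Egr1 were called and the other 5 were not, with adjusted p of 0.615 for Jun, 0.532 for Nr4a2, 0.342 for Klf4, 0.22 for Ier2 and 0.0613 for Egr2. The list's median difference with that scaling was -0.82. With the block over the 6 libraries alone Fosb was the one member called (0.0414).

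Fosb, which encodes a Fos-family subunit of AP-1, had 84.3, 139 and 232 FPKM at 1 h and 10.9, 22.7 and 36.8 at 2 h. The groups do not overlap, and the lowest library at 1 h was above the highest at 2 h in spite of the wide spread at 1 h. The log2 difference was -2.68 ± 0.47 (limma, adjusted p = 0.00186); with a pseudocount of 0.1 in place of 1 the adjusted p was 0.0796. Jun, the main partner of Fos proteins in AP-1, had 74.5, 106 and 122 FPKM at 1 h and 43.2, 54.9 and 55.2 at 2 h. It fell by 0.95 ± 0.19 on the log2 scale (adjusted p = 0.00809). Fos itself was at 24.6, 47.0 and 56.4 FPKM and then at 4.44, 23.6 and 32.8, so the groups overlap (-1.32 ± 0.67, adjusted p = 0.502). Junb, another Jun-family subunit, stayed abundant, at 212, 246 and 234 FPKM and then 159, 176 and 178, a difference of -0.43 ± 0.22 that was not called (adjusted p = 0.514).

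The Egr genes encode zinc-finger factors that bind GC-rich promoter sites. Egr1 was at 101, 174 and 144 FPKM at 1 h and at 31.9, 50.8 and 36.4 at 2 h, a fall of 1.78 ± 0.35 on the log2 scale (limma, adjusted p = 0.00696). Egr2 was at 51.4, 61.2 and 46.9 and then at 17.1, 27.2 and 12.5 FPKM (-1.50 ± 0.36, adjusted p = 0.0321). Both genes had every 2 h library under every 1 h library, as had every gene called lower. Egr3 had 44.6, 57.8 and 46.9 FPKM at 1 h and 10.2, 14.1 and 10.3 at 2 h, also without overlap. Its estimate, -2.02 ± 0.58, was larger than that of Egr1 but was not called (adjusted p = 0.0992). The SE comes from the spread within all 14 time points fitted, not from these 2 alone.

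Nr4a1 and Nr4a2 encode nuclear receptors that act without a known hormone. Nr4a1 was at 225, 265 and 138 FPKM at 1 h and at 29.4, 55.0 and 34.3 at 2 h (-2.37 ± 0.40, limma, adjusted p = 0.00126). Nr4a2 was lower throughout, at 12.0, 12.9 and 21.4 and then 2.82, 6.59 and 6.27 FPKM (-1.42 ± 0.36, adjusted p = 0.0462). Neither gene's groups overlap, as for every called gene. Ier2, a nuclear protein of the early response, was at 109, 150 and 150 and then at 51.3, 61.0 and 61.6 FPKM (-1.21 ± 0.28, adjusted p = 0.0286). Klf4, a zinc-finger factor and the eighth member called, was chosen for mention after its values were seen. It was at 30.9, 37.4 and 67.1 and then at 15.4, 20.2 and 20.0 FPKM (-1.17 ± 0.30, adjusted p = 0.0482, and 0.0729 with the block over 18 libraries). Atf3, a bZIP factor of the stress response, was at 30.5, 68.1 and 109 and then at 15.5, 26.4 and 22.2 FPKM, apart but not called (-1.50 ± 0.40, adjusted p = 0.0647). Myc, which drives growth and ribosome production, had 74.3, 90.2 and 83.5 FPKM and then 74.1, 76.2 and 80.8 (-0.10 ± 0.27, adjusted p = 0.959).

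Of these factors, Fosb and Nr4a1 were called without each of the 6 libraries in turn, with limma adjusted p of at most 0.0379 (Fosb) and 0.0199 (Nr4a1). Egr1 lost the call without 1 h replicate 2 (0.0645) and without 2 h replicate 1 (0.0607). Jun lost it without 1 h replicates 2 (0.0606) and 3 (0.0787) and 2 h replicate 1 (0.0848). Egr2 lost it without any library but 2 h replicate 2, with adjusted p of up to 0.19 (without 2 h replicate 3). Ier2 and Klf4 lost it without any library but 1 h replicate 1, with adjusted p of up to 0.143 (without 1 h replicate 2) and 0.276 (without 1 h replicate 3). Nr4a2 lost it without any 1 of the 6, with up to 0.317 (without 2 h replicate 1). With a pseudocount of 0.1 the adjusted p was 0.119 for Egr2 and 0.0911 for Nr4a2.

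**Figure D3:**
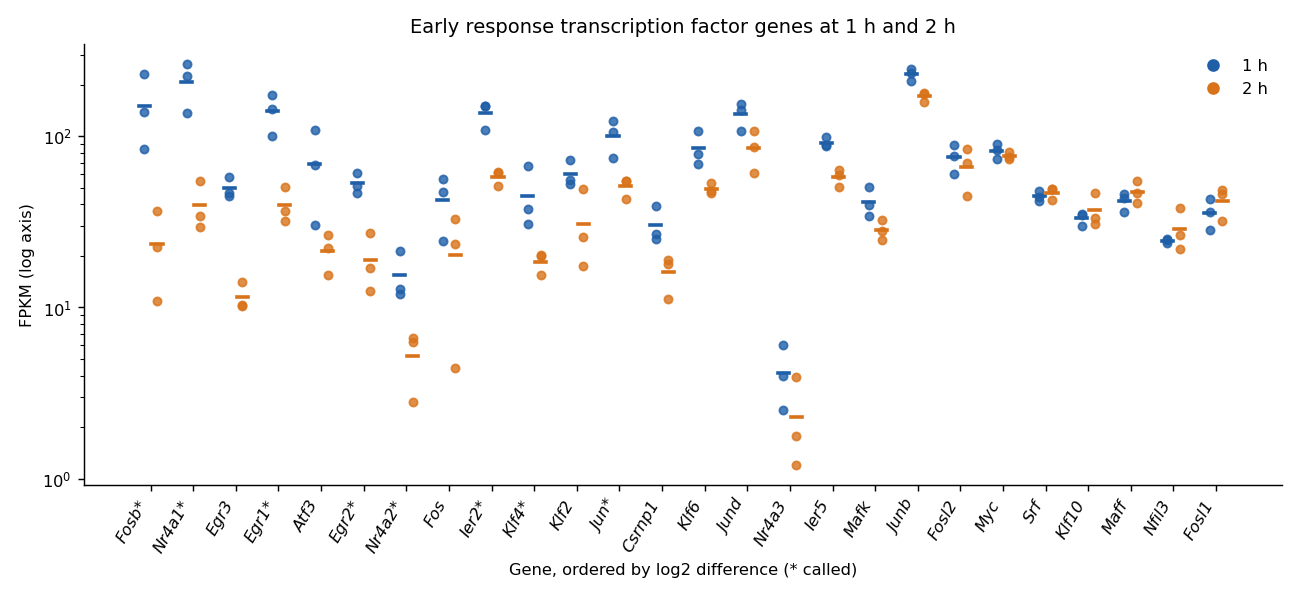
FPKM (log axis) of the 26 early response transcription factor genes tested, ordered by log2 difference; blue points are the 3 libraries at 1 h, orange the 3 at 2 h, bars their means, and an asterisk marks a called gene. For 16 of the 26 genes every orange point lies under every blue one, and for none do all orange points lie above.

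Among the genes that end the early response, Dusp1 fell and Dusp4 rose. Dusp1, a nuclear phosphatase of the MAP kinases, was at 58.3, 81.9 and 104 FPKM at 1 h and at 17.8, 33.0 and 35.4 at 2 h. It fell by 1.49 ± 0.26 on the log2 scale (limma, adjusted p = 0.00142), and the call held without each of the 6 libraries (adjusted p of at most 0.0311). Dusp4, a phosphatase of the same family, moved the other way, from 1.90, 2.93 and 1.63 FPKM to 6.56, 6.69 and 7.95 (1.37 ± 0.27, adjusted p = 0.0067). Without 1 h replicate 3 its adjusted p was 0.053, and with a pseudocount of 0.1 it was 0.243. These were the 2 calls among 17 members of the ERK feedback list, beside 0.87% of all genes, and the list's median was -0.11. Scaled to the blood-cell markers the adjusted p was 0.0705 for Dusp1 and 0.0733 for Dusp4. With the block over 18 libraries Spred1, an inhibitor of Ras signalling, was called higher too (0.76, adjusted p = 0.0471, against 0.0688 without the block).

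Of 16 mRNA decay factors, 4 were called lower (0.295% of all genes) and none higher (0.575%), 14 were negative and the median was -0.19. Zfp36, which binds AU-rich elements, was at 123, 138 and 148 FPKM at 1 h and at 42.2, 61.9 and 59.7 at 2 h (-1.32 ± 0.28, limma, adjusted p = 0.0153). Btg2, which binds the CCR4-NOT deadenylase, was at 78.3, 85.1 and 63.0 and then at 16.6, 33.8 and 19.1 FPKM (-1.72 ± 0.36, adjusted p = 0.0145). Tob1, a relative of Btg2, was at 55.2, 45.8 and 42.4 and then at 24.8, 27.9 and 24.1 FPKM (-0.87 ± 0.19, adjusted p = 0.018). None of the 3 overlaps between the groups, which held for all 121 called genes and for 17.9% of all genes tested. Tnrc6b, a GW182 protein of microRNA silencing, was at 7.48 to 8.68 and then at 4.59 to 4.93 FPKM (-0.65 ± 0.14, adjusted p = 0.0207). Each of these calls was lost without some libraries. The adjusted p reached 0.112 for Zfp36 and 0.104 for Btg2 without 2 h replicate 1, and 0.118 for Tob1 and 0.1 for Tnrc6b without 1 h replicate 1. Zfp36 also lost it without 1 h replicates 2 and 3, Btg2 and Tob1 without 1 h replicates 1 and 2 and 2 h replicates 1 and 3, and Tnrc6b without any library but 1 h replicate 2. Tob1 (0.772) and Tnrc6b (0.666) were not called after scaling to the blood-cell markers, and Zfp36 and Btg2 were.

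The promoters of falling genes shown here each hold a CArG box or a CRE, so they are examples and not a cross-section of the falling genes. RefSeq promoters of GRCm38.p6 were read for the 250 bases before the start of transcription, 5′ to 3′ in the direction of the gene, and 95 of the called genes and 10890 of the genes tested had one. The capitals in Egr2 (chr10:67537619-67537868, plus strand, from 1 of its 5 RefSeq starts) and Zfp36 (chr7:28379229-28379478, minus strand) mark a CArG box, at -72 to -63 and at -58 to -49 from the start. Those in Dusp1 (chr17:26508473-26508722, minus strand) mark a CRE at -143 to -136 and an E-box at -126 to -121, and those in Btg2 (chr1:134079156-134079405, minus strand) a CRE at -166 to -159.
Egr2: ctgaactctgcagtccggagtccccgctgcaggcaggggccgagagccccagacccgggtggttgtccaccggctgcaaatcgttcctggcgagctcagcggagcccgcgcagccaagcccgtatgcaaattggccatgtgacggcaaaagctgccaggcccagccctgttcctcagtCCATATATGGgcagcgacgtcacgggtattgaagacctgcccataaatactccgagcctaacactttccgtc
Zfp36: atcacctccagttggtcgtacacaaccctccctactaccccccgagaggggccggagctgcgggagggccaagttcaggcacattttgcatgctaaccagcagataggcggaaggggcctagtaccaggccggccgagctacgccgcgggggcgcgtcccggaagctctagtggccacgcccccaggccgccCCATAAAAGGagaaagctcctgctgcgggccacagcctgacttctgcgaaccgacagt
Dusp1: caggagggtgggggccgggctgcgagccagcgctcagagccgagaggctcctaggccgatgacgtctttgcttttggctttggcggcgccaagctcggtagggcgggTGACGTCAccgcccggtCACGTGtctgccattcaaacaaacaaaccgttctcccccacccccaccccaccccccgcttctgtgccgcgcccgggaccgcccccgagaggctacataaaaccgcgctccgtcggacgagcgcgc
Btg2: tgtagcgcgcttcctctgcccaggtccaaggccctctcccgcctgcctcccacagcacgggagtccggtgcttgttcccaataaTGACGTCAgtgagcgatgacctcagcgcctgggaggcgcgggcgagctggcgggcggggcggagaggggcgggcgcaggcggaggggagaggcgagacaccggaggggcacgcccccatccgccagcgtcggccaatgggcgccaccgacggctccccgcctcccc

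The motifs were searched on both strands, and a gene was counted where any of its RefSeq starts held a match. A CArG box stood before 2 of 33 genes called lower (6.06%), 0 of 62 called higher and 1.51% of all genes tested. The CRE, TGACGTCA, stood before 3 of 33 called lower (9.09%; Btg2, Dusp1 and Dcun1d3), 0 of 62 called higher and 2.96% of all. Among the falling genes whose promoter was read, Fosb, Jun, Nr4a1, Nr4a2, Klf4 and Per1 held neither a CArG box nor a CRE. The E-box CACGTG was before 8 of 33 (24.2%), 6 of 62 (9.68%) and 9.43% of all, and the kappaB site before 1 of 33 (3.03%), 6 of 62 (9.68%) and 5.44%. The AP-1 site (TGACTCA or TGAGTCA) was found before 0 of 33, 3 of 62 (4.84%) and 4.33% of all. TGATGNAAT, the ATF4 site, was before none of the called genes and 0.56% of all, and the interferon element GAAANNGAAA before 0 of 33, 1 of 62 (1.61%) and 3.48%. A match is a description of the letters in this window only, and factor binding was not measured.

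Other early response genes differed among themselves. Of 22 effectors, 1 was called lower (0.295% of all genes) and 1 higher (0.575%), with a median of -0.12. With the block over 18 libraries Plk3 was called lower too (-0.90, limma, adjusted p = 0.0216, against 0.28 without it), beside 0.669% of all genes. Arc, a protein of synapses and the cytoskeleton that is induced by the same signals as Egr1, had 76.7, 89.9 and 44.5 FPKM at 1 h and 22.1, 31.0 and 17.6 at 2 h, without overlap (-1.51 ± 0.36, limma, adjusted p = 0.0312). Its adjusted p was 0.186 without 1 h replicate 2 and over 0.05 also without 1 h replicate 1 and 2 h replicates 1 and 3, and it was 0.15 with a pseudocount of 0.1. Ptgs2, which encodes cyclooxygenase 2, was at 126, 115 and 118 and then at 79.1, 94.0 and 85.0 FPKM, apart but not called (-0.47 ± 0.36, adjusted p = 0.737). Gadd45b, a stress-response protein that binds MAP kinase kinases, was the member called higher. It was at 76.4, 75.5 and 68.4 FPKM and then at 154, 188 and 144 (1.12 ± 0.27, adjusted p = 0.0321). All 3 libraries at 2 h were above those at 1 h, yet leaving out any 1 of the 6 ended the call, with adjusted p of 0.059 (without 2 h replicate 3) to 0.169 (without 2 h replicate 2). Neither Arc (0.256) nor Gadd45b (0.545) was called after scaling to the blood-cell markers.

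A further 3 genes that fell belong to the clock, matrix and FOXO lists. Per1 is a repressor of the circadian clock that is also induced acutely through CREs, though the promoter window read above held no match. It was at 35.8, 44.8 and 38.0 FPKM at 1 h and at 8.24, 14.7 and 16.1 at 2 h. The groups are far apart, and the difference was -1.58 ± 0.20 (limma, adjusted p = 2.34e-05, and at most 0.000918 with 1 library left out). It was the only call among 15 clock genes, beside 0.87% of all genes, and the list's median was -0.23. Adamts1, a secreted metalloprotease that cuts proteoglycans, was at 69.3, 88.8 and 29.7 and then at 14.5, 19.5 and 8.33 FPKM (-2.01 ± 0.40, adjusted p = 0.00711). It was the only called member of 26 matrix remodelling genes, beside 0.87% of all genes, and the list's median was 0.22. Of the list 16 were positive and 10 negative. All 3 libraries at 2 h lay above for 8 members and below for 2, against 7.53% and 10.4% of all genes. With the block over 18 libraries the adjusted p of Adamts1 was 0.0723. In that fit Serpinb2 was the 1 member called, and it was higher (1.19, limma, adjusted p = 0.0394, against 0.103 without the block). The median and calls of Adamts1 below are from the fit to 42 libraries. Without 1 h replicates 1 and 2 and 2 h replicate 3 the adjusted p of Adamts1 was 0.0512, 0.0833 and 0.066. Irs1, the adaptor of the insulin and IGF receptors, was at 10.8, 11.3 and 6.75 and then at 5.28, 5.23 and 2.24 FPKM (-1.05 ± 0.25, adjusted p = 0.0321), and lost the call without 1 h replicates 1 (0.146) and 2 (0.183) and 2 h replicate 3 (0.254). Scaled to the blood-cell markers, Per1 was called (0.0223) and Adamts1 (0.0722) and Irs1 (0.731) were not.

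The last falling genes named were of low level. Rab3a, a small GTPase of vesicle release, had 3.40, 3.49 and 2.92 FPKM at 1 h, and at 2 h was at 0.712, listed at 0, and at 0.97 (-1.51 ± 0.37, limma, adjusted p = 0.0435). St8sia4, which adds polysialic acid to glycoproteins, was at 2.84, 1.39 and 4.06 and then at 0.255, 0.625 and 0.849 FPKM (-1.21 ± 0.30, adjusted p = 0.0454, and 0.105 with the block). The transcript 2810459M11Rik was at 5.14, 4.62 and 7.35 and then at 0.848, 0.952 and 4.11 FPKM (-1.32 ± 0.23, adjusted p = 0.00186). Rab3a lost its call without any 1 of the 6 libraries (up to 0.245, without 2 h replicate 2) and St8sia4 without any but 1 h replicate 2 (up to 0.234, without 2 h replicate 1). 2810459M11Rik was called without each library, but not with a pseudocount of 0.1 (0.213). Rab3a (0.35) and St8sia4 (0.0733) were not called when scaled to the blood-cell markers.

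Genes of secreted ligands were among those that rose. Ccl20, the chemokine that attracts Ccr6-bearing lymphocytes, had 4.26, 1.21 and 2.03 FPKM at 1 h and 13.4, 18.8 and 16.2 at 2 h. Every library at 2 h was above 3 times the highest at 1 h, and the difference was 2.37 ± 0.45 (limma, adjusted p = 0.00403). Its adjusted p was 0.0531 without 1 h replicate 2 and 0.355 with a pseudocount of 0.1. Ccl20 was the only called member of 29 cytokine and chemokine genes, beside 0.87% of all genes, and the median of the list was 0.08. With the block over 18 libraries Lif was called higher too (0.90, limma, adjusted p = 0.0303, against 0.296 without it), beside 0.999% of all genes. The promoter of Ccl20, the example shown of a kappaB site before a rising gene, lies at chr1:83116516-83116765 on the plus strand of GRCm38.p6. The match in capitals is at -80 to -71 on the opposite strand.
Ccl20: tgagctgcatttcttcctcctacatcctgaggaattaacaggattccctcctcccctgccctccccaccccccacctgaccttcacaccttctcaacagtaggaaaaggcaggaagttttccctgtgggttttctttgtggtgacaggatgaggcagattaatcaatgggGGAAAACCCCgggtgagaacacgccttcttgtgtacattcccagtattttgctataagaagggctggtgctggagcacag

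Of 23 growth factor ligands, 2 were called higher (0.575% of all genes) and none lower (0.295%), with a median of 0.08. Inhba, the subunit of activin A, was at 14.7, 19.1 and 21.5 FPKM at 1 h and at 76.4, 73.0 and 52.8 at 2 h (1.81 ± 0.41, limma, adjusted p = 0.0216). Vegfa, the main growth factor of blood vessels, was at 36.7, 35.4 and 46.1 and then at 86.7, 78.8 and 88.8 FPKM (1.09 ± 0.19, adjusted p = 0.00166). In both genes the 2 groups lie apart, as in every called gene. Scaled to the blood-cell markers neither was called (0.149 for Inhba and 0.386 for Vegfa). Vegfa was called without each library (at most 0.0222), while Inhba lost its call without 1 h replicates 1 (0.108) and 2 (0.0687) and 2 h replicates 1 (0.104) and 2 (0.0977), and was at 0.0843 with a pseudocount of 0.1. Tgfb1, which encodes the ligand TGF-beta 1, was at 49.2, 47.4 and 46.7 and then at 67.8, 72.8 and 75.7 FPKM, a difference of 0.58 ± 0.20 that was called only with the block over 18 libraries (adjusted p = 0.0168, against 0.204 without it).

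In the TGF-beta and BMP response list, 2 of 20 members were called higher (0.575% of all genes) and none lower (0.295%), with a median of 0.10. Tgfbr1, the type I receptor that phosphorylates Smad2 and Smad3, was at 10.4, 8.33 and 8.75 FPKM at 1 h and at 24.4, 24.0 and 21.9 at 2 h. The 3 libraries of each time lie close together, and the rise of 1.27 ± 0.21 (limma, adjusted p = 0.00105) was called without each library (at most 0.0124). Smad3, the effector below this receptor, was at 21.6, 20.0 and 14.5 and then at 32.4, 31.4 and 31.5 FPKM (0.75 ± 0.18, adjusted p = 0.0317). It lost the call without any library but 1 h replicate 1, with up to 0.199 (without 1 h replicate 3), and was at 0.768 when scaled to the blood-cell markers. Outside the list, Spsb1, a SOCS-box protein of a ubiquitin ligase, rose from 1.78, 1.01 and 1.06 to 8.22, 6.79 and 6.77 FPKM (1.86 ± 0.27, adjusted p = 0.000188).

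Further genes that rose encode single proteins of the surface or matrix, a grouping made after their values were seen. The matrix remodelling list itself had no member called higher in the fit to 42 libraries. With the block over 18 libraries Serpinb2 was called higher. Cadm4, an adhesion molecule of the immunoglobulin superfamily, was at 0.433, 0.37 and 1.24 FPKM at 1 h and at 4.76, 7.63 and 11.3 at 2 h (2.37 ± 0.34, limma, adjusted p = 0.000148, and 0.0677 with a pseudocount of 0.1). Npnt, nephronectin, a matrix ligand of integrins, was at 0.487, 1.04 and 0.698 and then at 5.87, 5.29 and 5.37 FPKM (1.91 ± 0.31, adjusted p = 0.000798). Sema7a, a membrane-anchored semaphorin, was at 10.7, 13.6 and 16.5 and then at 49.1, 43.8 and 52.3 FPKM (1.77 ± 0.44, adjusted p = 0.0424). In all 3 genes the lowest library at 2 h exceeded the highest at 1 h, as in every gene called higher. Tmem51, a membrane protein, was at 7.08, 1.30 and 5.07 and then at 20.4, 17.8 and 19.5 FPKM (2.06 ± 0.44, adjusted p = 0.0134). Sema7a lost its call without any 1 library (up to 0.179, without 1 h replicate 1) and with a pseudocount of 0.1 (0.104), and Tmem51 without 1 h replicate 2 (0.173) and 2 h replicate 1 (0.0626). Cadm4, Npnt and Spsb1 were called without each library. The adjusted p of Sema7a was 0.307 when scaled to the blood-cell markers.

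Among regulators in the cell that rose, Cebpd, a bZIP factor of the C/EBP family, was at 10.3, 7.03 and 4.12 FPKM at 1 h and at 38.9, 22.8 and 18 at 2 h (1.76 ± 0.35, limma, adjusted p = 0.00767). It lost the call without 1 h replicate 3 (0.0787) and 2 h replicate 1 (0.0971). Pdlim5, a scaffold on actin filaments, was at 26.5, 18.1 and 17.2 and then at 80.1, 78.1 and 35.3 FPKM, so that 2 h replicate 3 lay far under the other 2 (1.54 ± 0.28, adjusted p = 0.00215). Hivep3, a large zinc-finger protein, was at 1.03 to 1.34 and then at 3.19 to 6.58 FPKM (1.40 ± 0.32, adjusted p = 0.023, up to 0.155 without 2 h replicate 2). It kept the call with 1 library out only without 2 h replicate 3, and lost it with a pseudocount of 0.1 (0.143). Sipa1l2, a protein related to Rap GTPase activators, was at 1.51 to 2.65 and then at 4.5 to 9.75 FPKM (1.42 ± 0.28, adjusted p = 0.00695, and 0.0782 with a pseudocount of 0.1). It lost the call without 1 h replicate 1 (0.0556) and 2 h replicates 1 (0.0767) and 2 (0.0581). The other 3 of the largest rises with a level above 0 throughout were Adamts6, a metalloprotease (1.53 ± 0.26), Abtb2 (1.41 ± 0.24) and 4831426I19Rik (1.63 ± 0.20), which had adjusted p of 0.00109, 0.00126 and 2.32e-05 and were called without each library. Scaled to the blood-cell markers, Cebpd (0.0733), Pdlim5 (0.113), Hivep3 (0.292), Sipa1l2 (0.121) and Abtb2 (0.113) were not called.

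Ovol2, a zinc-finger repressor known from epithelia, was listed at 0 in all 3 libraries at 1 h and was at 1.31, 2.95 and 2.39 FPKM at 2 h. These 3 were the only libraries of the 44 in which it was above 0. It passed the filter on low values only through the group compared here, and its SE rests largely on groups listed at 0, so its call is given no weight (limma, adjusted p = 0.119 with the 6 libraries alone). Among all genes tested, 26 were listed at 0 in all 3 libraries at 1 h and above 0 in all 3 at 2 h, and 8 the other way round. Of the 2 h libraries, 2 were the deepest of the 6 by the estimate above, and the part of depth in these values was not tested.

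A few further calls were chosen for mention after their values were seen. Cdk17, a kinase of the cyclin-dependent family, was at 17.7, 17.2 and 18.3 FPKM and then at 40.9, 40.9 and 34.1 (1.08 ± 0.14, limma, adjusted p = 2.32e-05). Cd44, the hyaluronan receptor, was the most abundant gene among those named as rising, at 142, 115 and 136 and then at 229, 273 and 304 FPKM (1.03 ± 0.20, adjusted p = 0.0053, and 0.0531 without 1 h replicate 2). Fam129b was at 80.4, 88.6 and 88.1 and then at 187, 220 and 198 FPKM (1.22 ± 0.19, adjusted p = 0.000511). Cdk17 was called when scaled to the blood-cell markers, and Cd44 (0.611) and Fam129b (0.149) were not.

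Of the genes of B-lineage commitment, Foxo1 was the one called. Among 19 B-lineage transcription factors, 1 was called higher (0.575% of all genes) and none lower (0.295%), and the median was 0.02. Foxo1, a forkhead factor needed for early B-cell development, was at 3.95, 5.67 and 4.07 FPKM at 1 h and at 9.91, 9.74 and 9.39 at 2 h, so all 3 libraries at 2 h were above those at 1 h. The rise was 0.95 ± 0.23 (limma, adjusted p = 0.0366), and it was not called without any 1 of the 6 libraries (0.0514 without 1 h replicate 2 to 0.162 without 1 h replicate 1), nor when scaled to the blood-cell markers (0.82). At 0 h, when the blood-cell marker sums were higher and the stromal sums lower than at 1 h, the mean of Foxo1 was 2.33 FPKM. Whether its level lay in the iLS cells or in the feeder was not measured. Foxo1 also stands, with Irs1, as one of the 2 calls among 21 FOXO target and nutrient sensing genes, beside 0.87% of all genes. The median of that list was -0.11. Ebf1 was at 45.1, 41.8 and 19.9 FPKM and then at 31.8, 40.5 and 17.9 (-0.23 ± 0.33, adjusted p = 0.895), with overlap. Pax5, which seals B-cell identity, was at 5.05, 4.32 and 7.83 and then at 0.44, 3.70 and 4.40 FPKM (-0.98 ± 0.44, adjusted p = 0.409).

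No E or Id protein gene was called among the 7 tested, and the median was -0.13. Id3 was at 184, 178 and 108 FPKM at 1 h and at 110, 104 and 93.9 at 2 h (-0.57 ± 0.38, limma, adjusted p = 0.665), a value in which the native gene and the fusion cannot be told apart. Id2 was at 26.9, 27.7 and 34.0 and then at 46.3, 43.9 and 51.6 FPKM, with the groups apart but no call (0.66 ± 0.25, adjusted p = 0.279). Id1 had 122, 130 and 76.2 and then 104, 115 and 86.4 FPKM (adjusted p = 0.986). Tcf3, which encodes the E proteins E12 and E47, was at 46.5 to 52.8 and then at 44 to 46.8 FPKM (-0.13 ± 0.13, adjusted p = 0.819).

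Receptors and surface genes of the progenitors were not called either. None of 24 multipotent progenitor genes and none of 25 B-cell surface and signalling genes passed, with medians of -0.10 and -0.20. With the block over 18 libraries 1 progenitor gene, Igf2bp2, which encodes an RNA-binding protein, was called higher, beside 0.999% of all genes. Its difference was 0.89 (limma, adjusted p = 0.0342, against 0.142 without the block). Flt3, the receptor of Flt-3L, was at 63.4, 50.2 and 88.8 FPKM and then at 30.3, 32.1 and 60.2, overlapping between the groups though lower at 2 h in each replicate number (-0.74 ± 0.34, limma, adjusted p = 0.437). Kit, the receptor of SCF, was at 10.7, 8.59 and 10.7 and then at 16.7, 14.5 and 14.3 FPKM (0.56 ± 0.37, adjusted p = 0.665). Il7r had 3.93 to 8.25 and then 5.59 to 7.75 FPKM (0.06 ± 0.48, adjusted p = 0.997). Mycn was at 13.3 to 42.7 and then at 23.9 to 44.3 FPKM (adjusted p = 0.845), Cd79a at 7.08 to 11.3 and 4.64 to 7.87 (0.762), and Igll1 at 11.4 to 21.8 and 5.59 to 15.7 (0.831).

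The remaining lists had no call in the fit to 42 libraries. With the block over 18 libraries 1 NF-kB, 1 heat shock and 1 mitosis gene were called lower, and 2 cholesterol genes higher. Of the JAK-STAT genes 2 were called higher and 1 lower. In that fit 0.999% of all genes were called higher and 0.669% lower. Of 23 NF-kB and feedback genes 15 were positive and 8 negative, and the median was 0.10. All 3 libraries at 2 h lay above for 8 of them and below for 2, against 7.53% and 10.4% of all genes. Rel, a subunit of NF-kB, went against the list's median. It was at 27.3, 26.1 and 26.9 FPKM and then at 8.35, 14.1 and 14 (-1.11 ± 0.29, limma, adjusted p = 0.0626, and 0.0168 with the block over 18 libraries). Of 24 actin cytoskeleton and Yap target genes, 21 were positive and 8 had all 3 libraries at 2 h above, against 7.53% of all genes; the median was 0.20. Of 24 mitosis genes, 23 were negative, 7 had all libraries at 2 h below, and the median was -0.24, where 7768 of the 13907 genes tested were negative and 10.4% had all libraries below. Cholesterol and lipid synthesis genes (23) had a median of 0.22, with all libraries at 2 h above for 9 and below for 2.

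The median was 0.15 for 20 JAK-STAT feedback genes, in which Socs3 was at 53.0, 29.5 and 19.7 and then at 38.2, 44.9 and 25.8 FPKM (limma, adjusted p = 0.935). Ribosome biogenesis genes (28) had a median of 0.13 with 21 positive, and ATF4 and unfolded protein response genes (27) one of -0.16 with 19 negative. The median was -0.10 for 18 heat shock genes and -0.06 for 25 glycolysis and hypoxia genes. For Notch (15 genes, -0.04), interferon response (24, -0.04) and DNA replication (29, -0.03) the median turned positive, to 0.01, 0.01 and 0.02, with median-ratio scaling. Hes1, a target of Notch, was at 15.6, 20.3 and 20.4 and then at 14.2, 13.1 and 17.4 FPKM (-0.31 ± 0.41, adjusted p = 0.879).

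**Figure D4:**
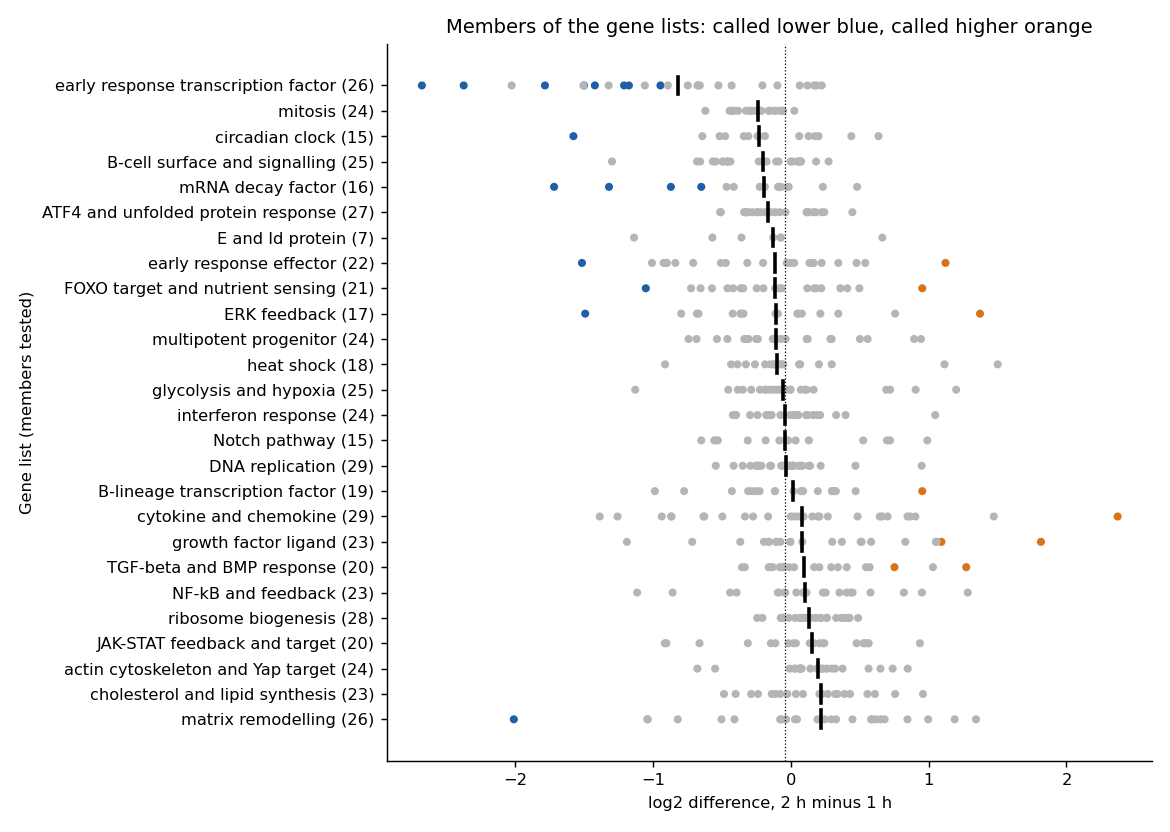
The log2 difference (2 h minus 1 h) of every member tested of 26 gene lists, 1 row per list with its number of members; blue points are called lower, orange called higher, grey not called, black bars list medians and the dotted line the median of all genes. Early response transcription factors have the lowest median, -0.82, and the other medians lie between -0.24 and 0.22. The lists were chosen with earlier results of these data known.

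Set beside the neighbouring time points, many of the falling genes had been higher still at 0.5 h and most rising genes had their highest mean at 2 h. These values share libraries with the comparison and are given as a description. The genes were chosen by their values at 1 h and 2 h, which favours such patterns, and the same counts over all genes tested were not made. From 0 h to 1 h the marker sums moved too, the stromal from 1062 to 3039 up to 7619 to 9193 and the blood-cell from 1916 to 2488 down to 887 to 1147, and their part in any difference from 0 h was not tested. Mean FPKM at 0, 0.5, 1, 2, 4 and 6 h ran 34.3, 239, 152, 23.5, 5.03 and 2.00 for Fosb. For Egr1 it ran 10.4, 240, 140, 39.7, 14.4 and 16.0, and for Dusp1 11.5, 150, 81.3, 28.7, 21.7 and 26.9. The means of Nr4a1 at 0.5 h and 1 h were close to each other, 231 and 209 FPKM, as were those of Per1, 38.5 and 39.5. Fos was at 266 FPKM at 0.5 h and already at 42.7 at 1 h. Of the 41 genes called lower, 32 had a mean at 1 h above that at 0 h and 24 were higher at 0.5 h than at 1 h.

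Of the 80 genes called higher, 55 had their highest mean of the 14 replicated time points at 2 h and 12 at 4 h. At 4 h 64 had a lower mean than at 2 h. Choosing genes by high values at 2 h favours both counts. Ccl20 ran 2.50, 16.1, 4.31 and 1.26 FPKM at 1, 2, 4 and 6 h, and was listed at 0 at 0 h. Tgfbr1 ran 10.8, 8.07, 9.15, 23.5, 13 and 9.44 FPKM from 0 to 6 h, so that 2 h was the one high point of the 6. Inhba held its level after 2 h, at 67.4, 68.7 and 59.8 FPKM at 2, 4 and 6 h, and Gadd45b stood at 162, 132 and 117. Foxo1 had 2 high points, 6.96 FPKM at 0.5 h and 9.68 at 2 h, with 4.56 at 1 h between them. For 38 of the 80 the mean at 1 h was under that at 0 h, as for Vegfa (49.2 FPKM at 0 h, 39.4 at 1 h and 84.7 at 2 h), over the interval in which the marker sums moved.

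**Figure D5:**
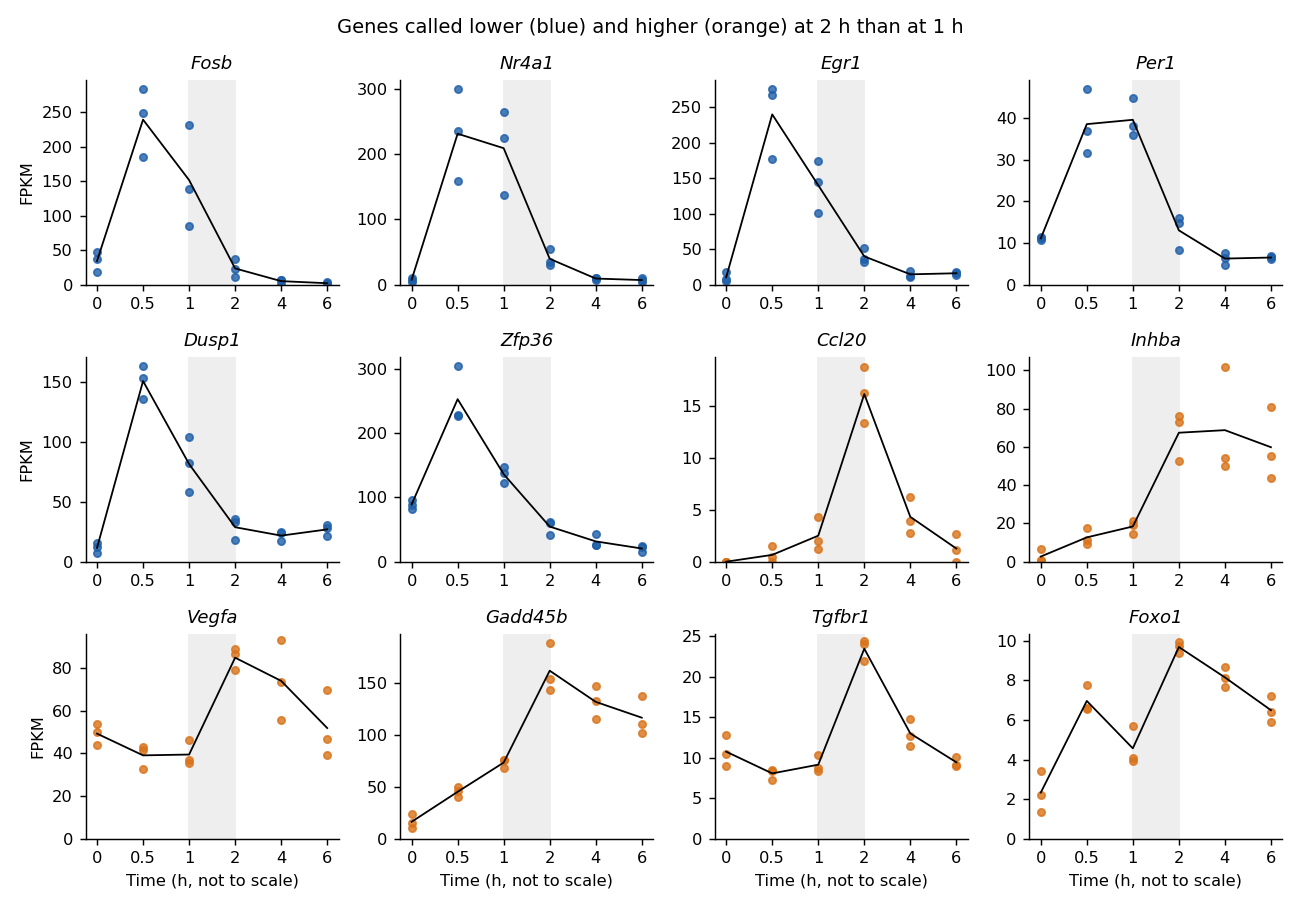
FPKM against time (h, not to scale) from 0 to 6 h for 6 genes called lower (blue) and 6 called higher (orange) at 2 h; each point is a library, the line follows the mean and the grey band marks 1 h to 2 h. The blue genes are high at 0.5 h and 1 h and low from 2 h on, and the orange genes are at or near their highest at 2 h.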

How the data were processed

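Poly(A) RNA of each library was sequenced on an Illumina HiSeq instrument, per the labels' protocols. The deposited table holds 1 FPKM value per gene and library. Per the submitters' processing notes, TopHat2 2.1.0, Cufflinks 2.1.1 and mm9 were used. What the word corrected in its name refers to is not given in the sources used here. No counts were used, so depth is unknown.

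Genes that reached 1 FPKM in 3 or more of 42 libraries were tested on log2(FPKM + 1) with limma 3.58.1 (R 4.3.3; lmFit, eBayes with trend, 28 residual degrees of freedom). The sums of markers were tested by exact permutation (SciPy 1.17.1). On simulated data for 2 h against 1 h (13907 genes), 51 of 100 genes changed 2-fold and 90 of 100 changed 4-fold were called, with 5 false calls. The simulated noise was normal, independent between libraries and of the same SD at all time points, so these counts need not hold for the real data. Same-numbered libraries at 1 h and 2 h deviated together (correlations of 0.126, 0.159 and 0.172, against -0.147 to 0.00535 for other numbers), and library codes run on within a number, so a fit with the replicate number as a block is given.

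The lists and members were chosen with earlier results of these data known. Named genes were the 15 largest called changes each way without overlap and without small RNA genes, up to 4 called members per list, and 30 fixed genes; genes named for a call gained with the block were chosen after their values were seen. Promoters are RefSeq, GRCm38.p6, matched by symbol. Alternatives were the pseudocount, the filter, the scaling, the libraries fitted, the block, the trend, a 2-fold minimum, a stromal covariate and each library left out.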

Additional observations from a re-analysis of the deposited data

How the results depend on the processing

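All 121 called genes that an alternative tested kept their direction in every alternative, and no named gene reversed. The number called moved by more than 1.5 times in some. Scaling to the blood-cell markers gave 25 calls (17 higher, 8 lower). The 6 libraries alone gave 6 (6 higher, 0 lower), though all 121 were at an unadjusted p under 0.05 there. The replicate block gave 4 (3 higher, 1 lower) over 6 libraries and 232 (139 higher, 93 lower) over the 18 libraries of 0 to 6 h; the latter fit without the block, chosen after seeing the data, gave 96. Of the named genes the block over 18 libraries ended only the calls of Adamts1 and St8sia4 (and of Klf4), and began those of genes given beside their results. A 2-fold minimum gave 69 (49 higher, 20 lower) and the stromal mean as a covariate 184 (69 lower), with Atf3 called at an adjusted p of 0.0412. Leaving out 1 library gave 45 to 74 calls, 34 to 53 higher and 10 to 22 lower, and 28 of the 121 (23 higher, 5 lower) were called each time. The causes of these changes were not tested. A pseudocount of 0.1 gave 91 calls, and the filters, quantile or median-ratio scaling and the fit without trend 112 to 133. With 3 libraries a side and unknown depth, genes that were not called are not shown to be the same at both times.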
